A study of Mus musculus with 9 samples.

Results

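The genes described here encode the enzymes that make cholesterol and long-chain fatty acids, together with the proteins that set their expression. The set holds 32 mouse genes chosen by name. Each was represented by the single-gene probe set with the highest mean over 9 arrays, and 31 of the 32 had such a probe set. Acat2, which encodes the cytosolic thiolase that joins 2 acetyl-CoA units, had none and is not described further. All 31 passed the filter on low values, a log2 value of 5 or more on 3 or more arrays, as did 15235 of 18193 genes in the whole table. RNA came from the mouse pancreatic cancer cell line 170#3, of a mixed C57BL6 x FVB x 129Sv background, grown in monolayer in DMEM with serum. The 3 groups were cells stably transfected with a control, with beta-catenin (the co-activator through which Wnt signals reach TCF target genes) or with ICAT (an inhibitor of beta-catenin that blocks this contact with TCF factors), with 3 arrays each. The labels give neither the vector and promoter, nor whether a transfected line was 1 clone or a pool, nor whether replicates were transfected separately. A difference between groups can therefore be one between lines. The labels call the replicates biological, without saying what was repeated. The p-values reflect the spread among these samples alone, part of which may be technical.

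Cholesterol is built from acetyl-CoA through mevalonate, the isoprenoid units made from it, squalene and lanosterol, and the last steps trim and rearrange the sterol ring. Fatty acids are built from the same acetyl-CoA by acetyl-CoA carboxylase and fatty acid synthase, and are then elongated and desaturated. Most of these genes are transcribed by the SREBP factors, which the escort protein SCAP carries to the Golgi for cleavage when sterols are low and which the INSIG proteins hold back in the endoplasmic reticulum when sterols are high. SREBP-2 acts mainly on the sterol genes and SREBP-1c mainly on the fatty acid genes, and dividing cancer cells use both branches for membranes.

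The medians of the 9 arrays lay between 6.21 and 6.29 on the log2 scale. The median SD per member between the 3 arrays of a group was 0.0396 (control), 0.0746 (beta-catenin) and 0.109 (ICAT), against 0.0567, 0.0746 and 0.121 over all tested genes. The transcripts of the transfected genes gave no clear check of the labels, because Ctnnb1, which encodes beta-catenin, rose by about the same amount with either transfection (1.15-fold with beta-catenin, 1.14-fold with ICAT; adjusted p = 0.0353 and 0.0364). Ctnnbip1, which encodes ICAT, missed the threshold with ICAT (log2 difference 0.14, adjusted p = 0.189), and the probe sets need not see the transgenes. Of 9 measured markers of pancreatic duct or epithelium, Krt7 and Cdh1 were under the filter, so these markers bore out the labelled cell type only in part. The 7 tested ones had none called with beta-catenin and 4 called higher with ICAT. In bulk RNA, fewer cells of a type and less RNA per cell cannot be told apart. Of 7 measured markers of fat cells, which make lipid strongly, the defining genes Adipoq, Cidec and Lep were under the filter in all groups. The mean log2 level of the 7 lay between 5.07 and 5.24 (control), 5.28 and 5.41 (beta-catenin) and 5.42 and 5.65 (ICAT), with 2 of 4 tested called higher with beta-catenin and 1 with ICAT. The latter was Fabp4, a fatty acid binding protein gene, at 3.19-fold and 6.71-fold in the lines. Fibroblast markers moved in both lines. With ICAT 6 of 7 tested markers were called higher and none lower, and with beta-catenin Pdgfra (4.11-fold) and Col1a1 (2.2-fold) were higher and Col1a2 was lower (2.63-fold). The mean log2 level of the 8 markers lay between 7.20 and 7.28 (control), 7.34 and 7.60 (beta-catenin) and 8.26 and 8.61 (ICAT), and the part of any marker list in the results was not tested. Of the immune and endothelial markers 1 of 5 was lower with beta-catenin, and of the hepatocyte markers 1 of 6 was lower with ICAT. Beside these marker counts, 19.6% of all tested genes were called higher and 15.4% lower with beta-catenin. With ICAT these shares were 18.7% and 18.5%.

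Against control, single genes of the set were called in both directions with beta-catenin, at shares near those of all genes. Hmgcs1, Pmvk, Idi1, Fdps, Sqle, Cyp51 and Ebp rose there, and Tm7sf2, Msmo1, Sc5d (by its brightest probe set only), Insig1, Acly and Scd1 fell. With ICAT most called genes were lower, among them genes of both the sterol and the fatty acid branch. With beta-catenin, 7 of the 31 genes were called higher and 6 lower at an adjusted p of 0.05 (limma), 41.9% of the set beside 34.9% of all tested genes. Split by direction, this was 22.6% higher, beside 19.6%, and 19.4% lower, beside 15.4%. With ICAT, 2 were called higher and 14 lower, 51.6% beside 37.2%. The share higher was 6.45% beside 18.7%, and the share lower was 45.2% beside 18.5%. The median log2 difference of the set was -0.01 in beta-catenin cells and -0.16 in ICAT cells, and over all tested genes it was -0.03 and -0.01. No member changed 2-fold. Mvd, Fdft1, Dhcr7, Srebf1, Scap, Scd2 and Fads1 passed in neither comparison with control, 7 of 31, whereas 48.1% of all genes passed in neither. The comparisons with control share the same 3 control arrays, so the test of unequal response is the direct one between the transfected lines. In that test 18 members were higher in beta-catenin than in ICAT cells and 5 were lower, 74.2% of the set beside 40.4% of all genes. The share higher was 58.1% beside 22.5%, and the share lower 16.1% beside 17.9%. The arrays of the groups did not overlap for 20 members with beta-catenin against control (54.1% of all genes), 21 with ICAT against control (46.2%) and 21 between the transfected lines (47.6%). A called difference of at least 0.5 on the log2 scale was found for 5, 4 and 10 members in these comparisons, beside 13.8%, 13.4% and 15.7% of all genes.

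**Figure D1:**
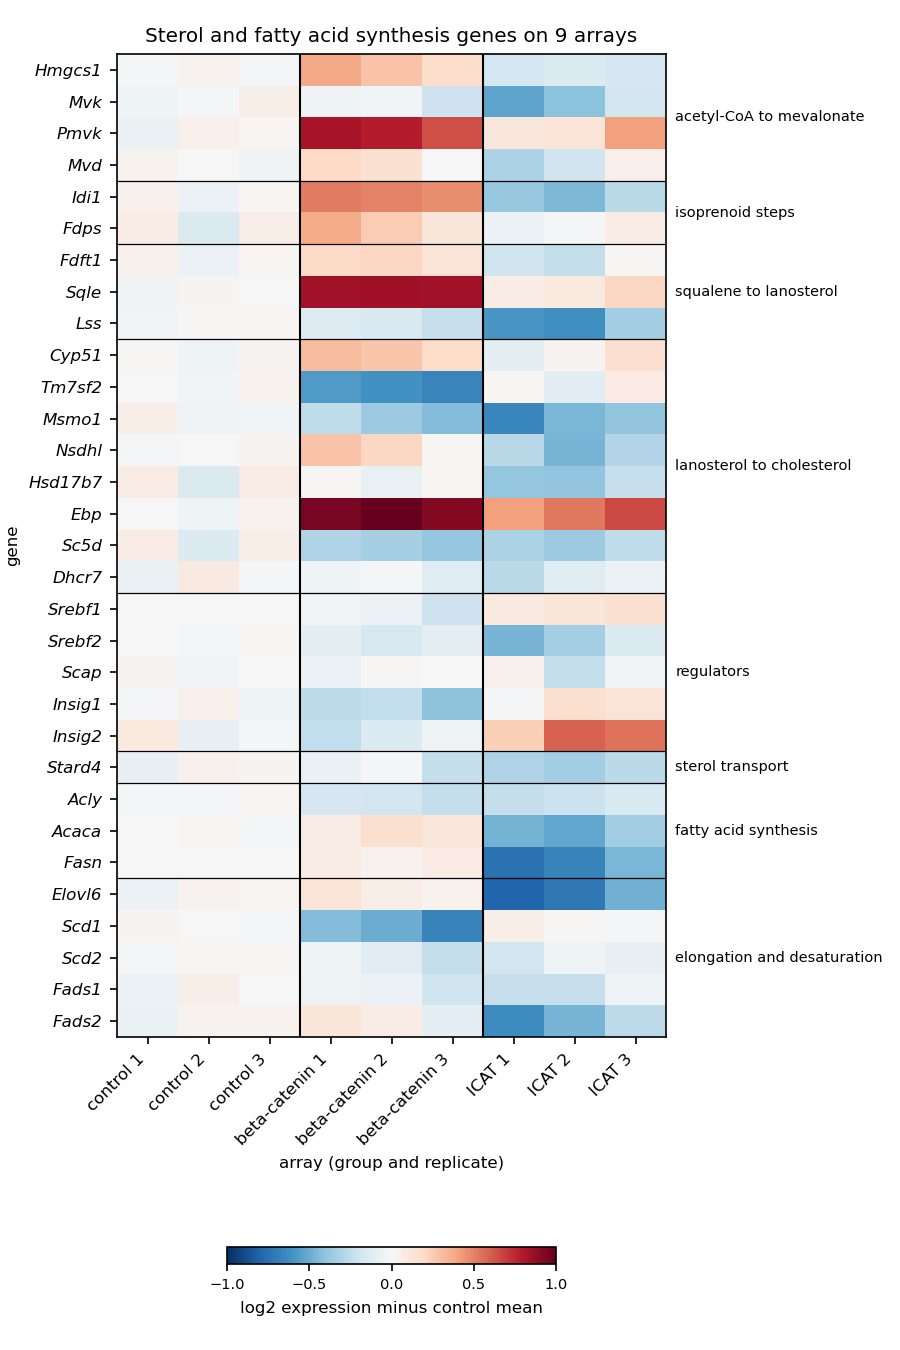
Each cell is the log2 expression of a gene (rows, ordered by role) on an array (columns, 3 per group) minus the mean of the 3 control arrays, with red for higher and blue for lower. Sqle, Ebp and Pmvk are darkest red on the 3 beta-catenin arrays, and Fasn and Elovl6 are darkest blue on the ICAT arrays.

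Part of the first steps of sterol synthesis rose with beta-catenin. Of the 4 measured enzymes from acetyl-CoA to mevalonate and its phosphates, Hmgcs1 and Pmvk rose, and Mvk and Mvd did not pass (log2 differences -0.09 and 0.12, adjusted p = 0.475 and 0.376). Pmvk, which encodes phosphomevalonate kinase, had log2 values of 8.80, 8.92 and 8.89 on the control arrays, 9.69, 9.65 and 9.51 on the beta-catenin arrays and 8.98, 9.0 and 9.28 on the ICAT arrays. All 3 beta-catenin values lay above every other array. The rise over control was 1.68-fold (log2 difference 0.75, SE 0.0875, adjusted p = 4.27e-05), and in ICAT cells Pmvk did not pass (0.22, adjusted p = 0.0744). Hmgcs1 encodes the synthase that makes HMG-CoA. It rose 1.21-fold in beta-catenin cells, from 12.19 ± 0.0236 (SD, n = 3) to 12.46 ± 0.104 (adjusted p = 0.00633).

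Isoprenoid genes followed. Idi1 encodes the isomerase that interconverts the C5 isoprenoid units. Its log2 values were 11.24, 11.14 and 11.22 in control, 11.72, 11.69 and 11.66 in beta-catenin and 10.82, 10.75 and 10.93 in ICAT cells. The 3 groups did not overlap, with ICAT lowest and beta-catenin highest. By the brightest probe sets, no other member was called in opposite directions. Hmgcs1 was by others of its probe sets, given with the other probe sets below. Idi1 rose 1.41-fold with beta-catenin (adjusted p = 0.00012) and fell 1.29-fold with ICAT (adjusted p = 0.00109). Fdps, whose product makes farnesyl diphosphate, rose 1.19-fold with beta-catenin (adjusted p = 0.0398) and had no difference that passed in ICAT cells (log2 difference 0.00, 95% interval -0.19 to 0.18). The Fdps call was lost when any of control replicates 1, 2 and 3, beta-catenin replicates 1 and 2 or ICAT replicate 2 was left out (adjusted p = 0.0518, 0.169, 0.0544, 0.141, 0.102 and 0.0509). That call was also lost in a fit over all probe sets (adjusted p = 0.0619), with the mean of its probe sets and with array medians subtracted. In all, 9 of 18 alternatives lost it.

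Of the 3 genes from squalene to lanosterol, Sqle alone passed with beta-catenin. Sqle, which encodes squalene monooxygenase, a rate-controlling enzyme of the branch to sterols, had values of 11.27, 11.33 and 11.31 in control cells, 12.14, 12.15 and 12.14 in beta-catenin cells and 11.38, 11.40 and 11.51 in ICAT cells. The beta-catenin arrays agreed within an SD of 0.00468. Sqle rose 1.79-fold (log2 difference 0.84, SE 0.0603, adjusted p = 9.36e-07), and its ICAT difference of 0.13 did not pass (adjusted p = 0.133), although the ICAT arrays all lay above the control arrays. By its brightest probe set Fdft1, whose product is squalene synthase, did not pass in either line (0.18 and -0.14, adjusted p = 0.0859 and 0.169). Lss encodes lanosterol synthase, which closes the sterol ring. On the arrays it read 9.99, 10.03 and 10.04 in control, 9.89, 9.87 and 9.79 in beta-catenin and 9.44, 9.41 and 9.67 in ICAT cells. It fell 1.43-fold in ICAT cells (adjusted p = 0.000286), while the beta-catenin difference missed the threshold (-0.17, adjusted p = 0.107).

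Of the 8 enzymes between lanosterol and cholesterol, 2 were called higher with beta-catenin (25%, beside 19.6% of all genes) and 3 lower (37.5%, beside 15.4%). Ebp, which encodes the sterol delta8-delta7 isomerase, had the largest difference of the set. Its values were 9.10, 9.06 and 9.14 in control, 10.05, 10.11 and 10.02 in beta-catenin and 9.51, 9.63 and 9.76 in ICAT cells. Every array of both transfected lines lay above every control array. Ebp rose 1.94-fold with beta-catenin (log2 difference 0.96, SE 0.0723, adjusted p = 1.36e-06) and 1.45-fold in ICAT cells (adjusted p = 0.000169), the only sterol enzyme that rose in ICAT cells. Cyp51, the lanosterol demethylase gene, rose 1.2-fold with beta-catenin (adjusted p = 0.0171). That call was lost without control replicate 2 (adjusted p = 0.0666), beta-catenin replicate 1 (0.0637) or beta-catenin replicate 2 (0.0599).

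Tm7sf2 moved the other way. It encodes a sterol delta14-reductase, which acts directly after the demethylase. The gene read 8.02, 7.99 and 8.05 in control, 7.45, 7.41 and 7.36 in beta-catenin and 8.04, 7.91 and 8.10 in ICAT cells. With beta-catenin it was lower by 1.53-fold (adjusted p = 2.46e-05), with no overlap between those arrays and the rest, and had a difference of 0.00 in ICAT cells (95% interval -0.15 to 0.14). Msmo1, the methylsterol oxidase gene, fell in both lines, 1.28-fold with beta-catenin (adjusted p = 0.00484) and 1.41-fold with ICAT (adjusted p = 0.000515). By its brightest probe set Sc5d, which encodes lathosterol desaturase, also fell in both, 1.27-fold and 1.24-fold (adjusted p = 0.00297 and 0.00501). Its probe sets disagreed, as described with the other probe sets.

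Nsdhl and Hsd17b7 encode the dehydrogenase and the ketoreductase that work with Msmo1 to remove methyl groups at carbon 4. In ICAT cells both fell, by 1.27-fold and 1.26-fold (adjusted p = 0.00541 and 0.00538). Nsdhl had values of 10.89, 10.90 and 10.93 in control, 11.19, 11.11 and 10.92 in beta-catenin and 10.63, 10.44 and 10.61 in ICAT cells. Beta-catenin replicate 3 lay within the control range, and the beta-catenin difference did not pass (0.17, adjusted p = 0.135; 0.24 and adjusted p = 0.0407 without beta-catenin replicate 3). Dhcr7, the gene of the last reductase, passed in neither line. Among the 17 measured sterol enzymes, 7 rose with beta-catenin (41.2%, beside 19.6% of all genes) and 3 fell (17.6%, beside 15.4%). With ICAT 1 rose (5.88%, beside 18.7%) and 7 fell (41.2%, beside 18.5%). The others called lower with ICAT were Mvk, which encodes mevalonate kinase (1.30-fold, adjusted p = 0.0066), Idi1, Lss, Msmo1 and, by its brightest probe set only, Sc5d.

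**Figure D2:**
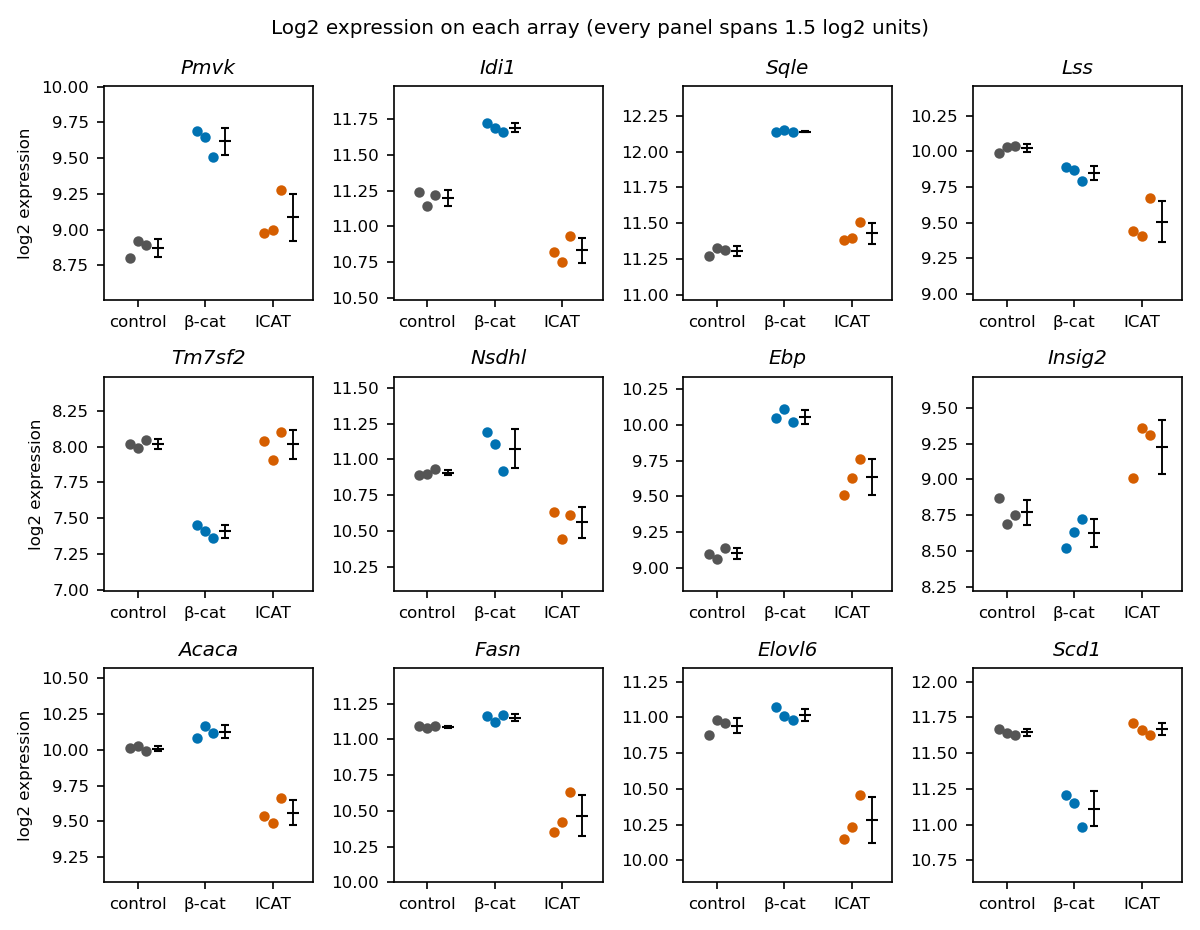
Log2 expression on each array for the 12 members with a called difference of at least 0.5 on the log2 scale in any comparison (β-cat, beta-catenin). Points are arrays and bars are the mean with its SD (n = 3). In Idi1 the 3 groups are apart, the beta-catenin points of Sqle and Tm7sf2 lie apart from the rest, and Fasn and Elovl6 are low on all 3 ICAT arrays.

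To show the DNA in front of genes that moved in different ways, the 150 bases upstream of the annotated start are printed for 3 genes that rose with beta-catenin (Hmgcs1, Idi1, Ebp), for Msmo1, which fell in both lines, and for the fatty acid desaturase gene Fads2, which fell with ICAT. Sequences are from RefSeq on GRCm38.p6, read 5′ to 3′ on the gene's strand, and no other gene record overlaps these windows. They lie at chr13:119690201-119690350 (plus strand), chr13:8885456-8885605 (plus strand), chrX:8193513-8193662 (minus strand), chr8:64733579-64733728 (minus strand) and chr19:10101504-10101653 (minus strand). Capitals mark matches on either strand to a sterol regulatory element (TCACNCCAC, whose matches can contain the shorter core CACCCCAC), an E-box (CACGTG), an NF-Y box (CCAAT) or an Sp1 box (GGGCGG).
Hmgcs1: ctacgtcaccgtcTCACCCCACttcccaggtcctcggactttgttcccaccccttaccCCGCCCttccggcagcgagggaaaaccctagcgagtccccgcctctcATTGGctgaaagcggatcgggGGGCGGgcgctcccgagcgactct
Idi1: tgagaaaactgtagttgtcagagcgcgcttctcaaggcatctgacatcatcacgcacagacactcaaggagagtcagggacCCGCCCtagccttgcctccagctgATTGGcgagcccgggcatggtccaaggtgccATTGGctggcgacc
Ebp: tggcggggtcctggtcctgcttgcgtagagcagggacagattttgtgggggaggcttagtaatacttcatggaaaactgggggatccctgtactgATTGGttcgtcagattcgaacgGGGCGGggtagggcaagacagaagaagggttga
Msmo1: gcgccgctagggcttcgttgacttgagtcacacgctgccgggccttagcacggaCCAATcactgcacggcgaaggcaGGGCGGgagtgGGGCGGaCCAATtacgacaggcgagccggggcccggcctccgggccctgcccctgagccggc
Fads2: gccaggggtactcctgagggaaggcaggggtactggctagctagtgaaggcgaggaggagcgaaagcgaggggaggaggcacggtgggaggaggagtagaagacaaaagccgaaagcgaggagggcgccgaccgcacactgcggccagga
Hmgcs1 held the sterol element from position -137 relative to its start, with an NF-Y box and a pair of Sp1 boxes nearer the start. Idi1, Ebp and Msmo1 held NF-Y and Sp1 boxes without that element, and the printed Fads2 bases held no match. Promoter windows from 250 bases before to 50 after the start were listed for 25 of the 32 genes, 33 windows in all. The NF-Y box was in 21 of the 33 windows (63.6%, beside 37.4% of all 32851 windows of the table), and the Sp1 box in 25 (75.8%, beside 35.7%). An E-box was in 6 (18.2%, beside 7.15%), the sterol element in 1 (3.03%, beside 1.24%) and the shorter core in 2 (6.06%, beside 2.87%). Windows of 1 gene can overlap, and a match describes letters only. NF-Y and Sp1 boxes stood before Idi1 and Ebp, which rose with beta-catenin, and before Msmo1, which fell. Whether a box has a part in any of these changes was not tested.

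Of the 8 genes of the fatty acid branch, 5 fell with ICAT and none rose (62.5% lower, beside 18.5% of all genes). With beta-catenin 2 of the 8 fell and none rose (25% lower, beside 15.4%). Fasn, which encodes fatty acid synthase, had log2 values of 11.09, 11.08 and 11.09 in control, 11.16, 11.12 and 11.17 in beta-catenin and 10.35, 10.42 and 10.63 in ICAT cells. The ICAT arrays lay below all others. The decrease was 1.54-fold (log2 difference -0.62, SE 0.0736, adjusted p = 6.64e-05), and the beta-catenin difference of 0.06 did not pass (adjusted p = 0.555). Acaca, the acetyl-CoA carboxylase gene that supplies malonyl-CoA, read 10.01, 10.03 and 9.99 in control, 10.08, 10.17 and 10.12 in beta-catenin and 9.54, 9.49 and 9.66 in ICAT cells. It fell 1.36-fold with ICAT (adjusted p = 0.000222). Its beta-catenin arrays were all above control, by a difference that did not pass (0.12, adjusted p = 0.186). Acly encodes ATP citrate lyase, which makes the acetyl-CoA for both branches. It fell 1.15-fold in each line (adjusted p = 0.0192 with beta-catenin and 0.0164 with ICAT). The beta-catenin call for Acly was lost without control replicate 1, 2 or 3 or beta-catenin replicate 2 or 3 (adjusted p = 0.0548, 0.0552, 0.0774, 0.0534 and 0.0754), and the ICAT call without control replicate 3 (adjusted p = 0.0685).

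Elongation and desaturation genes differed by line. Elovl6, whose product elongates palmitate to stearate, had values of 10.88, 10.98 and 10.96 in control, 11.07, 11.01 and 10.98 in beta-catenin and 10.15, 10.23 and 10.46 in ICAT cells. It fell 1.58-fold in ICAT cells (log2 difference -0.66, SE 0.0810, adjusted p = 8.38e-05), the largest decrease of the set in either comparison with control. Fads2, which encodes the delta6 desaturase of polyunsaturated fatty acids, fell 1.37-fold in ICAT cells, from 9.84 ± 0.0605 to 9.38 ± 0.178 (adjusted p = 0.00273). Its neighbour in function, the delta5 desaturase gene Fads1, did not pass in either line (-0.10 and -0.17, adjusted p = 0.324 and 0.104). The stearoyl-CoA desaturase gene Scd1, whose product makes oleate, read 11.67, 11.64 and 11.63 in control, 11.21, 11.15 and 10.98 in beta-catenin and 11.71, 11.66 and 11.63 in ICAT cells. With beta-catenin Scd1 was lower by 1.45-fold (adjusted p = 0.000107), with all 3 arrays below every other array, and its ICAT difference by this probe set was 0.02 (adjusted p = 0.847). Scd2, the second desaturase of this kind, was not called in either line (-0.13 and -0.10, adjusted p = 0.169 and 0.288).

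**Figure D3:**
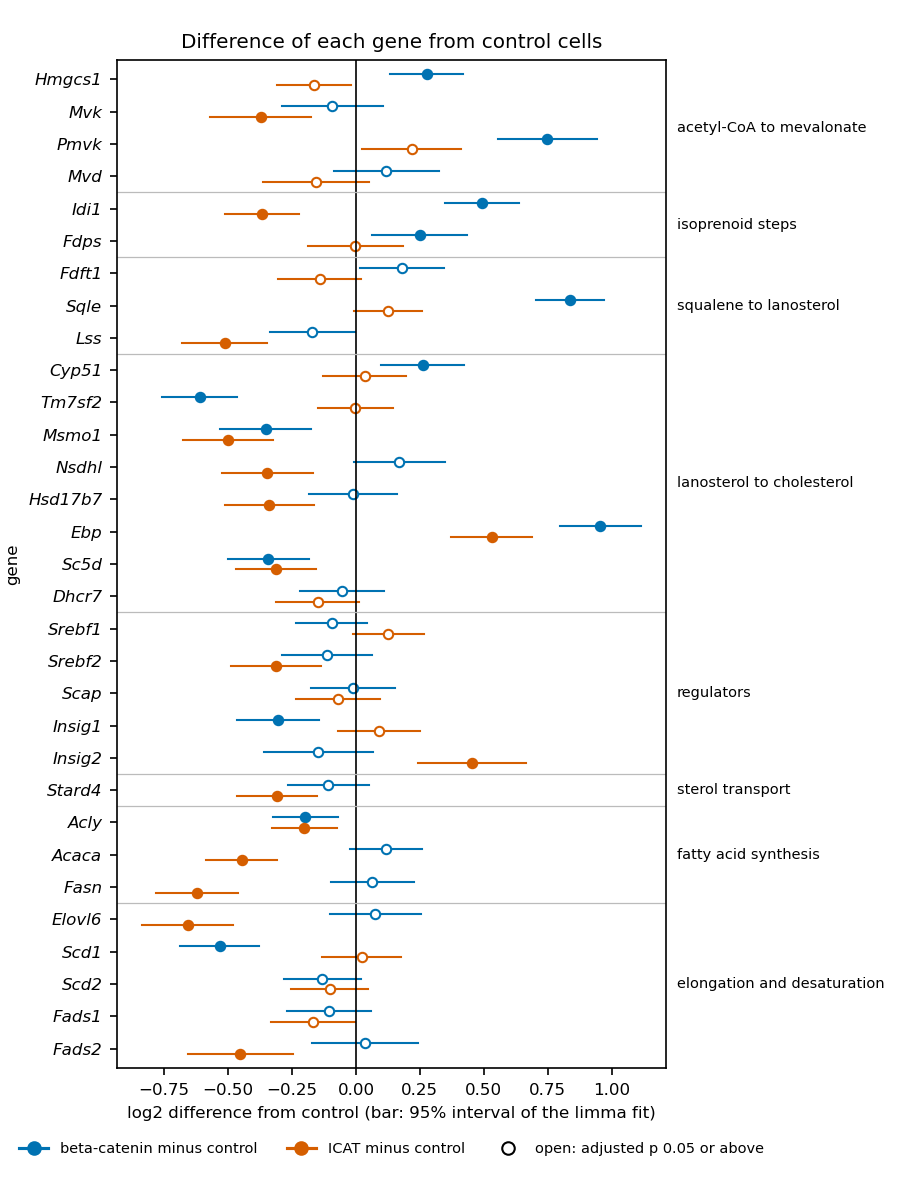
Log2 difference from control for each gene, ordered by role, with the 95% interval of the limma fit (n = 3 arrays per group; filled points passed an adjusted p of 0.05, open points did not). Beta-catenin points for the early sterol steps lie mostly to the right of 0. ICAT points lie to the left of 0 for 23 of 31 genes, 14 of them called, beside 7974 of all 15235 tested genes.

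Of the 5 regulators, 1 fell with beta-catenin, and 1 rose and 1 fell with ICAT (20% in each case, beside 15.4%, 18.7% and 18.5% of all genes). Srebf2, the SREBP-2 gene, fell 1.24-fold in ICAT cells (9.93 ± 0.0231 to 9.61 ± 0.164, adjusted p = 0.00889), and with beta-catenin it missed the threshold (-0.11, adjusted p = 0.313). Srebf1, the SREBP-1 gene, passed in neither line (-0.09 and 0.13, adjusted p = 0.29 and 0.149). Scap passed in neither, with 95% intervals of -0.18 to 0.15 and -0.23 to 0.10. The INSIG genes were each called against control in 1 line. With beta-catenin Insig1 fell 1.24-fold (10.48 ± 0.0496 to 10.17 ± 0.0908, adjusted p = 0.00657). Insig2 read 8.87, 8.69 and 8.75 in control, 8.52, 8.63 and 8.72 in beta-catenin and 9.01, 9.36 and 9.31 in ICAT cells. The ICAT arrays lay above all others, a 1.37-fold rise over control (adjusted p = 0.00303). Stard4, which encodes a soluble sterol carrier, fell 1.24-fold in ICAT cells (adjusted p = 0.00513).

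Set directly against each other, the transfected lines differed most in Idi1, 1.81-fold higher in beta-catenin than in ICAT cells (log2 difference 0.86, SE 0.0658, adjusted p = 1.93e-06). Elovl6 was 1.66-fold higher (adjusted p = 3.04e-05), Sqle 1.64-fold (4.29e-06), Fasn 1.61-fold (2.53e-05) and Acaca 1.48-fold (3.5e-05). Lower in beta-catenin cells were Tm7sf2 (1.52-fold, adjusted p = 2.87e-05), Insig2 (1.52-fold, 0.000422), Scd1 (1.47-fold, 8e-05), Insig1 (1.32-fold, 0.0011) and Srebf1 (1.17-fold, 0.0153). By role, 13 of 17 sterol enzymes (76.5%) and 4 of 8 fatty acid genes (50%) were higher with beta-catenin, beside 22.5% of all genes. In each branch 1 gene was lower (5.88% and 12.5%, beside 17.9%). All 4 measured enzymes of the mevalonate steps were among the higher ones, with Pmvk 1.44-fold and Hmgcs1 1.36-fold. Several of the smaller calls were lost when 1 array was left out. Those of Mvk, Fdps and Cyp51 were lost when replicate 1 or 2 of either transfected line was left out (adjusted p from 0.0651 to 0.126), those of Mvd and Stard4 without any control array or any of these 4 (adjusted p from 0.0511 to 0.17), and that of Srebf1 without beta-catenin replicate 3 (adjusted p = 0.0734).

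The 31 genes had 72 single-gene probe sets, and 22 genes had more than 1. In a fit over all probe sets, Insig2 rose in ICAT cells by all 3 of its probe sets, by 0.46, 0.82 and 0.61 on the log2 scale, and Fads2 fell by all 3, by 0.45, 0.33 and 0.57. Stard4 fell in ICAT cells by 0.31, 0.86 and 0.34, and by its second probe set also in beta-catenin cells (fell by 0.30, adjusted p = 0.0296). For Hmgcs1 4 of 5 probe sets were called higher in beta-catenin cells. In ICAT cells its brightest probe set did not pass (-0.16, adjusted p = 0.13), whereas 3 others were lower, by differences of -0.34, -0.24 and -0.76 (adjusted p = 0.00499, 0.0464 and 0.000267). Cyp51 rose more by its second probe set, 0.63 against 0.26. Scd1 was lower in ICAT cells by its dimmer probe set alone (-0.40, adjusted p = 0.00223), and Fdft1 by its dimmest alone (-0.25, adjusted p = 0.0256). Sc5d was called in opposite directions in ICAT cells, -0.31 by the brightest and 0.34 by the second probe set (adjusted p = 0.00956 and 0.00816), and the third showed -0.04 (adjusted p = 0.785), so no direction can be given for this gene there. The ICAT decrease of Lss passed by its brightest probe set and not by the second (-0.01, adjusted p = 0.962), and the third gave -0.30 (adjusted p = 0.082). With beta-catenin the third Lss probe set was called lower (-0.41, adjusted p = 0.0217) and the second was not called (0.09, adjusted p = 0.438). Between the transfected lines Lss passed by its brightest probe set alone, and the others gave 0.10 and -0.11 (adjusted p = 0.373 and 0.576). Other ICAT decreases also rested on the brightest probe set: the second probe sets of Srebf2 and Mvk gave -0.08 and -0.18 (adjusted p = 0.562 and 0.189), and the 3 others of Hsd17b7 gave -0.16, 0.18 and -0.22 (adjusted p = 0.241, 0.0632 and 0.0738).

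**Figure D4:**
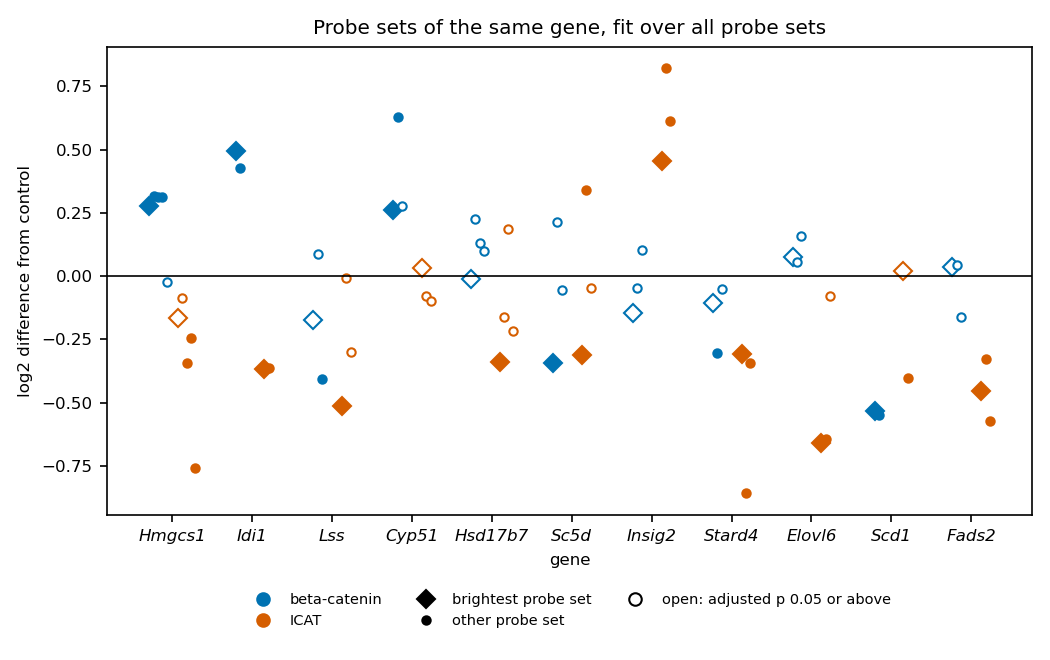
Log2 difference from control by each probe set above the filter of 11 members (diamond, brightest probe set; circle, other; filled, adjusted p under 0.05 over all probe sets; blue, beta-catenin; orange, ICAT). The ICAT points of Insig2 all lie above 0 and those of Fads2 below 0, while those of Sc5d lie on both sides.

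Beta-catenin replicate 3 was the lowest of its group for 25 of 31 members, beside 31.6% of all tested genes, and ICAT replicate 3 was the highest of its group for 24 of 31, beside 43.9%. The mean of the 17 sterol enzymes relative to control was 0.21, 0.17 and 0.09 on the 3 beta-catenin arrays and -0.21, -0.19 and -0.03 on the 3 ICAT arrays. For the 8 fatty acid genes it was -0.04, -0.06 and -0.15 and then -0.40, -0.35 and -0.23. In each line the array numbered 3 thus lay nearest to control for the sterol enzymes. Without ICAT replicate 3, 17 members were called lower in ICAT cells and 2 higher. Without beta-catenin replicate 3, 8 were called higher and 5 lower in beta-catenin cells. Shares of all genes in these fits are not set beside these counts, so a moved count is not a result about the members.

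Genes around the pathway were read from 4 further lists. Of 17 tested further genes of sterol synthesis and uptake, 7 were higher and 3 lower with beta-catenin (41.2% and 17.6%, beside 19.6% and 15.4% of all genes). With ICAT 6 were higher and 4 lower (35.3% and 23.5%, beside 18.7% and 18.5%). Mbtps2, which encodes the site-2 protease that releases SREBPs from the membrane, rose 2.07-fold with beta-catenin (adjusted p = 1.68e-07), more than any member. Ggps1, the geranylgeranyl diphosphate synthase gene, rose 1.63-fold there and Rnf139, which encodes a ubiquitin ligase of the endoplasmic reticulum, 1.71-fold, while the lipoprotein receptor gene Lrp8 fell 1.60-fold. In ICAT cells Vldlr, another lipoprotein receptor gene, read 8.56, 9.0 and 8.71 against 5.98, 5.88 and 6.28 in control, a 6.54-fold rise (adjusted p = 1.29e-07). Tmem97 and Lrp8 fell 1.77-fold and 1.73-fold there, and Npc2, which encodes a lysosomal sterol carrier, rose 1.65-fold.

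Liver X receptor, efflux and oxysterol genes had 3 of 16 higher and 3 lower with beta-catenin, 18.8% each and near the 19.6% and 15.4% of all genes. With ICAT 5 were higher and 1 lower (31.2% and 6.25%, beside 18.7% and 18.5%). The cholesterol exporter gene Abca1 had values of 11.31, 10.92 and 10.64 in ICAT cells against 9.47, 9.59 and 9.60 in control, a 2.65-fold rise (adjusted p = 2.82e-05). It was 3.10-fold lower in beta-catenin than in ICAT cells (adjusted p = 7.02e-06). Cyp7b1, an oxysterol hydroxylase gene under log2 5 on all control arrays, rose at least 5.06-fold and 4.51-fold in the lines, with control arrays set to 5. Lipa, which encodes lysosomal acid lipase, rose 1.5-fold and 1.62-fold, and in beta-catenin cells Nceh1 and Osbpl3 fell 1.96-fold and 1.74-fold.

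Further fatty acid and lipid synthesis genes had 7 of 26 higher and 9 lower with beta-catenin (26.9% and 34.6%, beside 19.6% and 15.4% of all genes), and 4 higher and 8 lower with ICAT (15.4% and 30.8%, beside 18.7% and 18.5%). The acyl-CoA synthetase gene Acsl5 fell 1.74-fold and 1.82-fold, and the elongase gene Elovl1 1.42-fold and 1.46-fold. Slc25a1, the mitochondrial citrate carrier gene, fell 1.64-fold in beta-catenin cells. Dgat1 was higher there, at 8.69, 8.82 and 8.85 against 8.24, 8.21 and 8.22 in control. In ICAT cells Elovl7 and Acsl4 rose 1.62-fold and 1.60-fold. The opposite process, fatty acid oxidation, had 8 of 17 genes higher and 1 lower with beta-catenin (47.1% and 5.88%, beside 19.6% and 15.4%). With ICAT 10 were higher and 1 lower (58.8% and 5.88%, beside 18.7% and 18.5%), with medians of 0.24 and 0.23 on the log2 scale in the respective lines. Decr1, which encodes a dienoyl-CoA reductase, rose 2.6-fold and 2.03-fold (adjusted p = 8.21e-08 and 1.94e-06). Ppargc1a, the gene of the co-activator PGC-1alpha, read 7.53, 7.59 and 8.00 in beta-catenin cells against 5.31, 5.35 and 5.37 in control, a 5.15-fold rise, and stayed between 5.16 and 5.56 in ICAT cells. The nuclear receptor gene Ppard fell 2.04-fold and 1.49-fold.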

How the data were processed

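The deposited table holds log2 expression for 45037 probe sets on 9 Affymetrix arrays, which the authors computed by RMA; RMA and affy are named, without a version, per the submitters' processing notes. This method corrects for background, equalises the distributions of the arrays and summarises probes, so it compresses differences of dim probe sets and would hide a shift of all genes. Probe sets with 1 gene symbol (34945) were used, with symbols updated through Entrez identifiers in a RefSeq table (204 not found there kept their own). Each gene was taken at its brightest probe set. Group means were fitted over 15235 genes with limma 3.58.1 (R 4.3.3; residual degrees of freedom 6, prior 5.03), with two-sided moderated tests and Benjamini-Hochberg adjustment over all genes of a comparison. No permutation test was used, since its smallest exact p with 3 arrays per group is 0.1. No 2 arrays were identical. No replicate block was used, because the labels do not say that a replicate number marks a shared day or culture. The correlation of deviations from the group means between same-numbered arrays ran from -0.129 to 0.41, and 5 of 9 pairs exceeded 0.1. Scripts were tested on simulated data. The members and the gene lists were chosen with earlier results of these data known. Members with a called log2 difference of at least 0.5 are given array by array, and from each further list up to 4 called genes with the largest differences per comparison could be named; not all are described. Alternatives were other filters, probe set choices, array sets, weights, variance models and scaling, a replicate block, and each array left out. Folds are 2 to the power of the difference of mean log2 values. The number of arrays limits the precision.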

Additional observations from a re-analysis of the deposited data

How the results depend on the processing

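The counts of members called higher and lower were recomputed under 18 alternatives for each comparison. Array weights were highest for beta-catenin replicate 2 (3.81) and lowest for ICAT replicate 3 (0.217). Only with these weights did a count move by over 1.5 times, from 7 to 11 members higher in beta-catenin cells than in control. Shares of all genes under the alternatives are not set beside these counts. A moved count is therefore not a result about the members. Leaving out each array in turn gave 5 to 8 higher and 5 to 7 lower for beta-catenin against control. It gave 2 to 3 and 13 to 17 for ICAT against control, and 13 to 19 and 4 to 5 for beta-catenin against ICAT. The other alternatives gave 6 to 11 higher and 4 to 9 lower for beta-catenin against control. For ICAT against control they gave 2 to 3 and 14 to 18. Between the transfected lines they gave 14 to 19 and 4 to 5. With the replicate number as a block the counts were 7 and 6, 2 and 14, and 16 and 5; Mvd and Stard4 lost their call between the transfected lines, and, as a hint from the data and not from the design, 6 of 9 arrays correlated best with an array of their own number. The block was left out because the labels do not say that a replicate number marks a shared day or culture. Whether same-numbered arrays shared a day or culture was not tested. Of the 1674 single values, 64 lost and 35 gained a call. With the mean of all probe sets, Scd1 in ICAT cells turned from 0.02, not called, to -0.19 (adjusted p = 0.0257), because its dimmer probe set was lower, and Sc5d passed in neither line (adjusted p = 0.448 with beta-catenin and 0.956 with ICAT). Hsd17b7 then missed the threshold in ICAT cells (adjusted p = 0.0511). A further 32 values changed sign without passing before or after, none over 0.12 in size in the reported fit. All members were above the filter, so its level did not decide which were tested. Signal over background could not be judged because no detection calls were used.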
